A study of Homo sapiens with 6 samples.

Results

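Described here are 50 genes that run and structure mitosis: mitotic cyclins and kinases, the spindle checkpoint, the anaphase machinery, the kinetochore, condensin, the mitotic spindle and cytokinesis. The members were taken by gene symbol from a table of 20332 genes, and all 50 were listed in it. The list leaves out kinesins as a family but holds CENPE, a kinesin motor of the kinetochore. RNA was sequenced from LX-2, an immortalized cell line derived from human stellate cells of the liver. In the liver, TGF-β1 drives these pericytes to become myofibroblasts that lay down matrix. All cells received TGF-β1, in 3 libraries with the solvent DMSO and in 3 with compound 11 at 10 µM, both for 48 h, so neither group shows LX-2 cells without TGF-β1. The labels name the compound by its number only.

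Entry into mitosis is driven by cyclin-dependent kinase 1 bound to cyclin A2 and then to B-type cyclins, and by Polo-like and Aurora kinases. Condensin compacts the chromosomes, the kinetochore couples them to spindle microtubules, and the spindle checkpoint holds back the anaphase-promoting complex until every chromosome is attached. Transcripts of these genes are made late in the cell cycle: in resting cells and G1 the DREAM repressor sits on their promoters, and in S phase and G2 the factors B-MYB and FOXM1 replace it and activate them. Both forms contain the MuvB core, which binds a promoter element called the CHR, the cell cycle genes homology region. A CCAAT box, bound by NF-Y, often lies upstream of it. In a dividing culture the level of these transcripts therefore rises and falls with the share of cells in G2 and mitosis.

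Of the 50 genes, 49 fell with compound 11, 0 rose and 1, the condensin subunit SMC2, did not pass the threshold. Levels are given in TPM, transcript abundance corrected for length and scaled to one total per library, and a gene was called when limma, on log2(TPM + 1) across all 12067 genes tested, gave a Benjamini-Hochberg adjusted p below 0.05. Among all tested genes 49.6% were called, 24.3% lower and 25.3% higher; among the 6663 genes whose mean level lay in the members' own range, 20.5 to 431 TPM, 29.3% were called lower. No member was higher at an unadjusted p below 0.05 either. The median log2 fold change of the members was -0.94, against -0.0013 for all tested genes, and 2.88% of all tested genes fell by as much as that median or more. A fall of at least 2-fold on the log2 scale was found for 22 members, against 2.41% of all tested genes. In 49 members every compound 11 library lay below every DMSO library, a separation seen in 28.4% of all tested genes. The falls ran from 1.33-fold for ECT2 to 3.12-fold for CCNA2 as ratios of mean TPM. The RNA came from whole cultures, so fewer cells in G2 and mitosis and less RNA per such cell cannot be told apart.

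**Figure D1:**
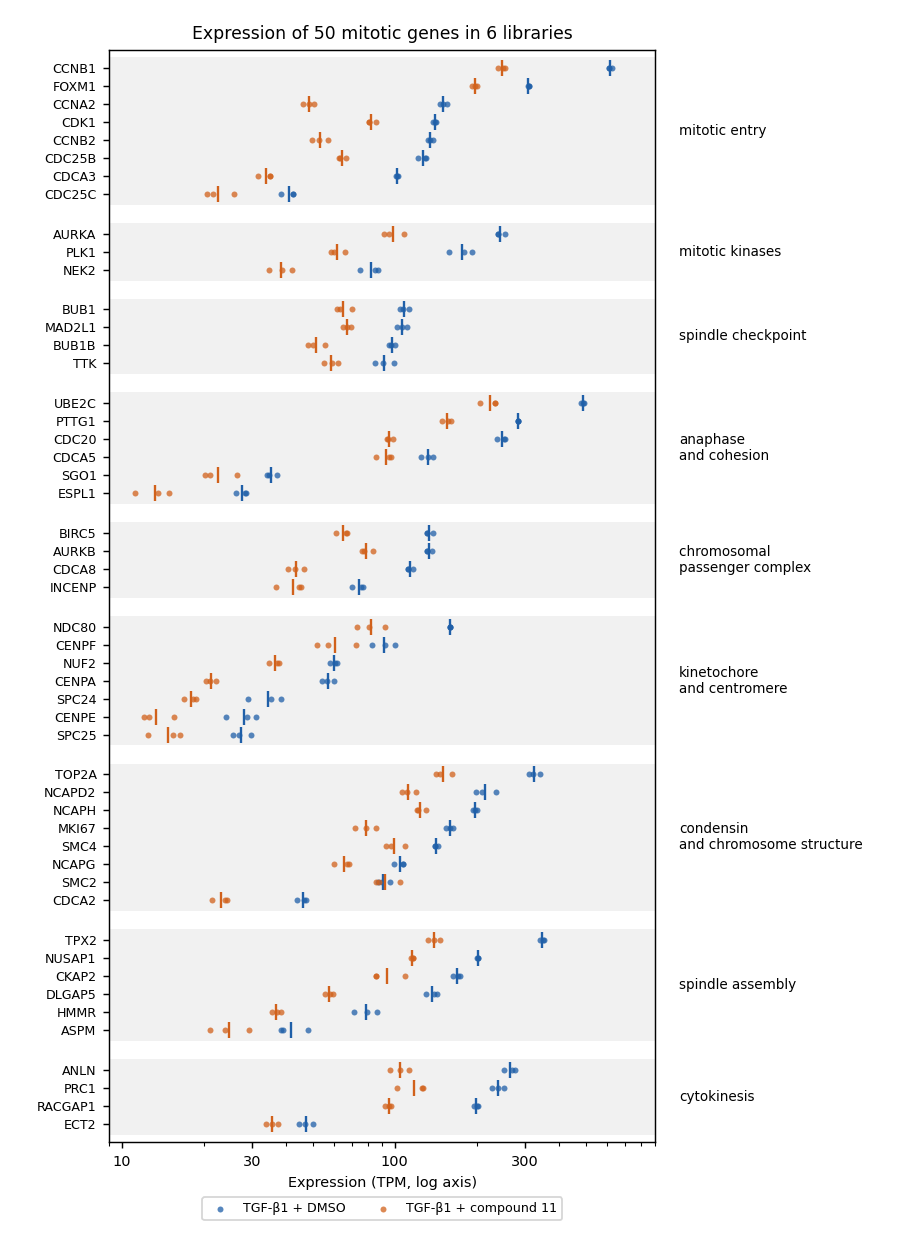
Expression of the 50 mitotic genes by role. Each point is 1 library, in TPM on a log axis, blue for TGF-β1 with DMSO and orange for TGF-β1 with compound 11; the vertical tick is the mean of 3 libraries. The orange points lie left of the blue ones for every gene except SMC2, where the groups overlap.

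The members together made up 0.759% to 0.77% of all transcripts in the DMSO libraries and 0.374% to 0.401% in the compound 11 libraries. Their summed level was 7655 ± 53.0 TPM with DMSO and 3831 ± 157 TPM with the compound (SD, n = 3 per group). Compound 11 replicate 3 carried the highest sum of its group, and 34 of the 50 members had their highest compound 11 value in it, against 43.2% of all tested genes. Without that library 49 members were still called lower, and their median log2 fold change was -0.98. The list of stellate and mesenchymal markers held 12 genes. VIM was at 6400 ± 194 TPM with DMSO and 7512 ± 106 TPM with the compound. In the same order, COL1A1 was at 1132 ± 30.9 and 102 ± 6.91 TPM, and ACTA2 at 176 ± 4.47 and 6.28 ± 0.416 TPM. TAGLN was at 713 and 85.6 TPM, PDGFRB at 26.5 and 9.75 TPM, and NGFR at 21.6 and 21.9 TPM. Lower levels were found for COL1A2, at 5.86 and 0.662 TPM, and LHX2, at 4.57 and 4.45 TPM. HAND2 was at 2.43 and 2.01 TPM and RELN at 0.232 and 1.38 TPM, while DES and LRAT were at or near 0. Of 8 hepatocyte markers 7 stayed below 1 TPM in every library, ALB among them, and so did the leukocyte marker PTPRC. The hepatocyte list summed to 3.67 to 4.56 TPM with DMSO and 19.2 to 27.5 TPM with the compound, nearly all of it SERPINA1, and the 6 macrophage and leukocyte markers to 85.4 to 88.6 and 134 to 150.3 TPM, mostly CD68. Of 4 cholangiocyte markers, SOX9 was at 23.6 ± 1.02 TPM with DMSO and 34.6 ± 1.31 TPM with the compound. KRT7 went the other way, at 3.92 and 2.45 TPM, while KRT19 was at 0.96 and 1.03 TPM and EPCAM at 0.489 and 0.45 TPM. The endothelial marker PECAM1 was at 0.518 ± 0.136 and 2.77 ± 0.345 TPM, with the other 4 of 5 endothelial markers below 1 TPM in every library. For all of these markers, their part in the falls was not tested. Whether replicates came from independent cultures is not in the labels; the tests measure variation among these libraries only, and it may be technical. Depth is unknown because the values are scaled to a fixed total.

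The promoters of the members were read for the CHR letters, spelled TTTGAA or, in a second common form, TTCGAA, and for the letters CCAAT, on both strands. The windows come from RefSeq (GRCh38.p14) and run from 250 bases before to 50 after an annotated start. Shown are the 5 members with the largest falls among those with a window, and SMC2, the member that did not pass the threshold. Each is printed from 150 bases before to 50 after the start, 5′ to 3′ along the gene's strand, with the matches in capitals; ATTGG is CCAAT and TTCAAA is the CHR, both read on the other strand.
CCNA2, chr4:121823834-121824033, minus strand: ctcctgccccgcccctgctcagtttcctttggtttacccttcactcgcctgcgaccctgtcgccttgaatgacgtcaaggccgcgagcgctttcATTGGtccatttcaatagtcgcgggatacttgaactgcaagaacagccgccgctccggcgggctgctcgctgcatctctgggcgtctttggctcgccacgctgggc
CDCA3, chr12:6851237-6851436, minus strand: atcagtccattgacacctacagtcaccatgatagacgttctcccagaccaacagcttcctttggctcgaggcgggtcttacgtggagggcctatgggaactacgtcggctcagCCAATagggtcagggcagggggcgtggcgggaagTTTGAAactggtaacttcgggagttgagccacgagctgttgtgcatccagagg
PLK1, chr16:23678739-23678938, plus strand: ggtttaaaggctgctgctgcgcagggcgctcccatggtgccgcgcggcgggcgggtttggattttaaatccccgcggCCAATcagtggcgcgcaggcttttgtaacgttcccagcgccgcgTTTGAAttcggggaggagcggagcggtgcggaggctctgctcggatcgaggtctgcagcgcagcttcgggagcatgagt
CENPA, chr2:26785906-26786105, plus strand: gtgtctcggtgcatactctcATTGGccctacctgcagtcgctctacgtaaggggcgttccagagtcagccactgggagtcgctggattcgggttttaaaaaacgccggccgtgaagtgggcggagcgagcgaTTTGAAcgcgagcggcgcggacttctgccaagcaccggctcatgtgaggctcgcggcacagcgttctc
CDCA8, chr1:37692366-37692565, plus strand: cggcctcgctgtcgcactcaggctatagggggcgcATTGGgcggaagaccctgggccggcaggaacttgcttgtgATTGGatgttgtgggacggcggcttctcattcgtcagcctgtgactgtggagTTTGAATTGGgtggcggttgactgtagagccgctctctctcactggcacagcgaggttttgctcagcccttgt
SMC2, chr9:104094159-104094358, plus strand: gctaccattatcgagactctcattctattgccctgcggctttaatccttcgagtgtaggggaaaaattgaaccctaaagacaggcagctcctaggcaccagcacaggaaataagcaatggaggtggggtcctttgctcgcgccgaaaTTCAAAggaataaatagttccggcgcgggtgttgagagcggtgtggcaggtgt

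PLK1, CDCA3, CENPA and CDCA8 each held TTTGAA within 50 bases upstream of the start, at -29, -3, -18 and -23 respectively, counted from the start base to the first base of the match. In PLK1 and CDCA3 a CCAAT lay upstream of it, at -73 and -37. CENPA had CCAAT matches on the other strand at -130 and, outside the stretch shown, at -205, both also upstream of the CHR letters. CDCA8 had 3 CCAAT matches on the other strand. Those at -115 and -75 lay upstream of the CHR letters, and the nearest to the start, at -18, overlapped them. Cyclin A2 (CCNA2), the member with the largest fall, held a CCAAT match at -56 but neither of the searched spellings of the CHR in its window. Its printed sequence does hold the letters cttgaa, which differ from TTTGAA in the first base only and were not searched. Whether they act as the element was not tested. SMC2 has 2 annotated starts in the table. The window shown held TTTGAA on the other strand at -3 and no CCAAT; the other window held neither motif.

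Windows were found for 42 members, 54 windows in all; AURKA, BIRC5, CDCA2, FOXM1, RACGAP1, TPX2, TTK and UBE2C were not matched. The CHR letters were in 33 of the 42 genes (78.6%), against 15.6% of the 9838 tested genes with a window. Within 50 bases of the start the shares were 66.7% and 4.93%. CCAAT was in 76.2% of the members and 44% of all tested genes, and both motifs shared a window in 59.5% and 6.61%. These shares describe genes listed by mitotic function and do not depend on the treatment. In 2 member windows a CHR match overlapped a CCAAT match. Of 49 CHR matches 24 began between -50 and the start, while 36 of 81 CCAAT matches began between -100 and -51. The 9 members with neither CHR spelling were AURKB, CCNA2, CCNB1, CENPE, CKAP2, NCAPH, NEK2, PTTG1 and SPC24. Their median log2 fold change was -0.89, against -0.91 for the 33 with a match. A match of letters is a description of the sequence and not a binding site. Other spellings of the element were not searched, so the 9 members may hold one of those. The part of the element in the falls was not tested.

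**Figure D2:**
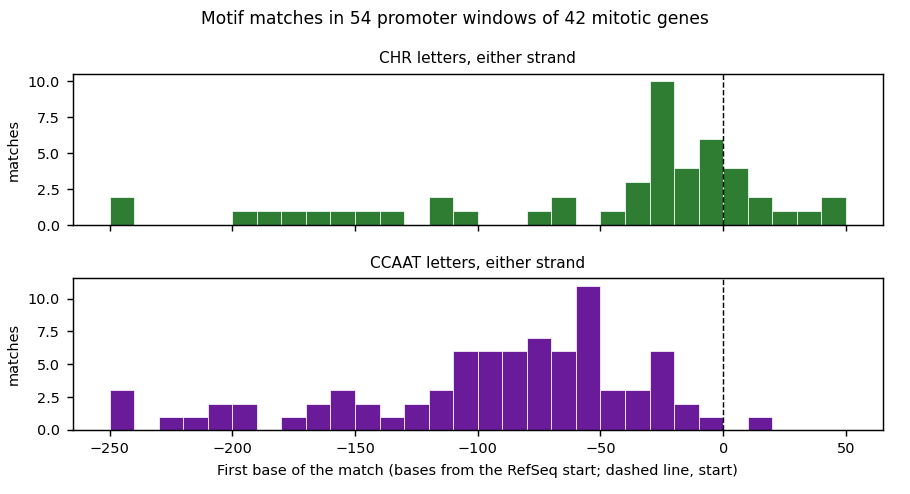
Positions of CHR letters (upper panel) and CCAAT letters (lower panel) in 54 promoter windows of 42 mitotic genes; the horizontal axis is the distance in bases of the first base of the match from the RefSeq start (dashed line), and the vertical axis counts matches per 10 bases, with overlapping windows of one gene counted separately. CHR matches gather just upstream of the start, where 24 of 49 began within 50 bases, and CCAAT matches further upstream.

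Among the 8 genes of mitotic entry all fell, with a median log2 fold change of -1.14. CCNB1, cyclin B1, was the most abundant member in both groups, at 607, 626 and 608 TPM in the DMSO libraries and 239, 249 and 254 TPM in the compound 11 libraries (log2 fold change -1.31 ± 0.03 SE, limma adjusted p = 4.95e-09). CCNA2, cyclin A2, which acts in S phase and G2, was at 147, 150.3 and 156 TPM in the DMSO libraries and 46.2, 48.5 and 50.6 TPM in the compound 11 libraries, 3.12-fold lower (log2 fold change -1.62 ± 0.05 SE, limma adjusted p = 1.18e-08). Neither cyclin overlapped between groups, and CCNA2 dropped from rank 19 to rank 34 by level among the 50. CCNB2, cyclin B2, went from 135 ± 2.57 to 53.2 ± 3.58 TPM. CDK1, the kinase these cyclins activate, went from 139.9 ± 2.04 to 82.1 ± 2.84 TPM (log2 fold change -0.76). The amount of CCNB1 per CDK1 transcript was lower, with ratios of TPM of 4.34, 4.54 and 4.29 with DMSO and 2.98, 3.08 and 2.97 with compound 11. CCNA2 to CDK1 went from 1.08 ± 0.0276 to 0.589 ± 0.0125. Both belong to 12 ratios chosen after the values were seen. Each gave p = 0.1 in an exact two-sided permutation test, the lowest value possible here, and 0.15 after Benjamini-Hochberg adjustment.

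CDCA3, a protein of mitotic entry that takes part in ubiquitin-dependent turnover, was 3.02-fold lower, from 102 ± 1.05 to 33.8 ± 1.92 TPM. The phosphatases CDC25B and CDC25C, which remove the inhibitory phosphates from CDK1, went from 127 ± 4.79 to 64 ± 2.02 TPM and from 41.1 ± 2.43 to 22.6 ± 2.73 TPM. FOXM1, the transcription factor of the G2 programme, showed the smallest fall of the group, at 311, 307 and 309.5 TPM in the DMSO libraries and 196, 192 and 199.7 TPM in the compound 11 libraries (log2 fold change -0.65 ± 0.03 SE, limma adjusted p = 3.28e-07). Its 2 groups did not overlap, and it moved up from rank 5 to rank 3 by level.

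All 3 genes of the group of mitotic kinases fell by at least 2-fold on the log2 scale. The kinases CDK1, AURKB, BUB1 and TTK, placed in other groups, fell by less. Their log2 fold changes were -0.76, -0.75, -0.73 and -0.64. PLK1, Polo-like kinase 1, was at 179, 192 and 159 TPM in the DMSO libraries and 60.1, 58.5 and 65.6 TPM in the compound 11 libraries (log2 fold change -1.51 ± 0.07 SE, limma adjusted p = 2.41e-07). AURKA, the Aurora kinase of the spindle poles, was at 253, 239.5 and 239 TPM in the DMSO libraries and 95.5, 91.1 and 108 TPM in the compound 11 libraries (log2 fold change -1.31 ± 0.06 SE, limma adjusted p = 1.94e-07). NEK2, which splits the centrosomes before mitosis, was at 84.9, 74.5 and 87 TPM in the DMSO libraries and 38.8, 34.5 and 42.1 TPM in the compound 11 libraries (log2 fold change -1.08 ± 0.08 SE, limma adjusted p = 6.13e-06). In each of them the lowest DMSO library was above the highest compound 11 library. TPX2, the spindle protein that activates AURKA, fell in step with it: the TPM ratio of TPX2 to AURKA was 1.42 ± 0.0319 with DMSO and 1.42 ± 0.0531 with the compound.

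The 4 spindle checkpoint genes also fell, but 0 of them reached 2-fold, and their median log2 fold change was -0.70. BUB1, a checkpoint kinase, was at 105, 107 and 113 TPM in the DMSO libraries and 61.3, 63 and 69.9 TPM in the compound 11 libraries (log2 fold change -0.73 ± 0.06 SE, limma adjusted p = 8.3e-06). BUB1B, which encodes the BubR1 protein of the mitotic checkpoint complex, was at 95.1, 100.2 and 97.1 TPM in the DMSO libraries and 50.2, 48.3 and 55.6 TPM in the compound 11 libraries (log2 fold change -0.91 ± 0.06 SE, limma adjusted p = 1.83e-06). TTK, the MPS1 kinase, was at 90.6, 84.7 and 99.5 TPM in the DMSO libraries and 54.9, 58.7 and 62 TPM in the compound 11 libraries (log2 fold change -0.64 ± 0.07 SE, limma adjusted p = 6.01e-05). The groups stayed apart in each, and the SD over DMSO libraries was 7.45 TPM for TTK and 2.55 TPM for BUB1B. MAD2L1, the MAD2 protein that binds CDC20, went from 107 ± 4.55 to 66.7 ± 2.21 TPM.

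The 6 genes of anaphase and cohesion all fell, with a median log2 fold change of -0.94. CDC20, which the checkpoint inhibits and which is the activator of the anaphase-promoting complex, was at 251, 253 and 236 TPM in the DMSO libraries and 93.9, 99 and 94.2 TPM in the compound 11 libraries (log2 fold change -1.36 ± 0.04 SE, limma adjusted p = 1.43e-08). UBE2C, the ubiquitin-conjugating enzyme of the same complex and the member second to CCNB1 in level, was at 492, 482 and 491 TPM in the DMSO libraries and 205, 234 and 232 TPM in the compound 11 libraries (log2 fold change -1.12 ± 0.05 SE, limma adjusted p = 1.36e-07). Neither gene showed overlap between groups. PTTG1, securin, went from 283 ± 1.04 to 155 ± 5.97 TPM; its near-identical copy PTTG2 was listed at 0 in every library, although how reads were divided between them is not known. ESPL1, separase, which securin inhibits and which cuts cohesin, went from 27.7 ± 1.36 to 13.2 ± 1.87 TPM. The other two genes protect cohesion and also fell. SGO1, shugoshin, went from 35.2 ± 1.54 to 22.6 ± 3.4 TPM, and CDCA5, sororin, was at 125, 133 and 139 TPM in the DMSO libraries and 85.5, 95.6 and 96.5 TPM in the compound 11 libraries (log2 fold change -0.51 ± 0.06 SE, limma adjusted p = 9.21e-05).

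All 4 genes of the chromosomal passenger complex fell. This complex corrects faulty kinetochore attachments and later moves to the spindle midzone. BIRC5, survivin, which helps bring the complex to centromeres, was at 131, 138 and 131 TPM in the DMSO libraries and 67, 66.2 and 61.1 TPM in the compound 11 libraries (log2 fold change -1.03 ± 0.05 SE, limma adjusted p = 2.53e-07). CDCA8, borealin, was at 112, 112 and 117 TPM in the DMSO libraries and 40.7, 43.1 and 46.7 TPM in the compound 11 libraries (log2 fold change -1.37 ± 0.06 SE, limma adjusted p = 9.64e-08). AURKB, the kinase of the complex, was at 132, 137 and 131 TPM in the DMSO libraries and 77.2, 83 and 75.9 TPM in the compound 11 libraries (log2 fold change -0.75 ± 0.05 SE, limma adjusted p = 1.56e-06). The subunits fell by different amounts while no groups overlapped, and INCENP, the scaffold, went from 73.8 ± 3.79 to 42.2 ± 4.88 TPM. The TPM ratio of CDCA8 to INCENP was 1.54 ± 0.0785 with DMSO and 1.04 ± 0.135 with the compound, whereas AURKB to INCENP was 1.81 ± 0.137 and 1.89 ± 0.328. In the exact permutation test p was 0.1, the lowest possible, for the first ratio and 0.9 for the second. Both ratios were chosen after the values were seen.

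At the kinetochore and centromere 7 of 7 genes fell. NDC80, the microtubule-binding subunit of the outer kinetochore, was at 160.0, 159 and 159.7 TPM in the DMSO libraries and 80.5, 72.7 and 92 TPM in the compound 11 libraries (log2 fold change -0.96 ± 0.07 SE, limma adjusted p = 5.89e-06). CENPA, the histone variant that marks the centromere, was at 56.7, 54.1 and 60.1 TPM in the DMSO libraries and 20.3, 22.2 and 21.1 TPM in the compound 11 libraries (log2 fold change -1.38 ± 0.06 SE, limma adjusted p = 1.99e-07). CENPF, a large protein of the outer kinetochore and the fibrous corona, was at 92, 82.6 and 99.9 TPM in the DMSO libraries and 57, 51.8 and 72.1 TPM in the compound 11 libraries (log2 fold change -0.60 ± 0.11 SE, limma adjusted p = 0.00184). The groups were separate in all 3, and for CENPF compound 11 replicate 3 lay closest to the DMSO libraries. NUF2, SPC24 and SPC25, the partners of NDC80 in the Ndc80 complex, had log2 fold changes of -0.71, -0.89 and -0.86. Their levels were below that of NDC80 in each group: NUF2 went from 60.1 ± 1.78 to 36.5 ± 1.63 TPM, SPC24 from 34.3 ± 4.74 to 18 ± 0.99 TPM and SPC25 from 27.4 ± 2.12 to 14.8 ± 2 TPM. CENPE, the motor that moves chromosomes to the spindle equator, went from 28 ± 3.52 to 13.4 ± 1.88 TPM.

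**Figure D3:**
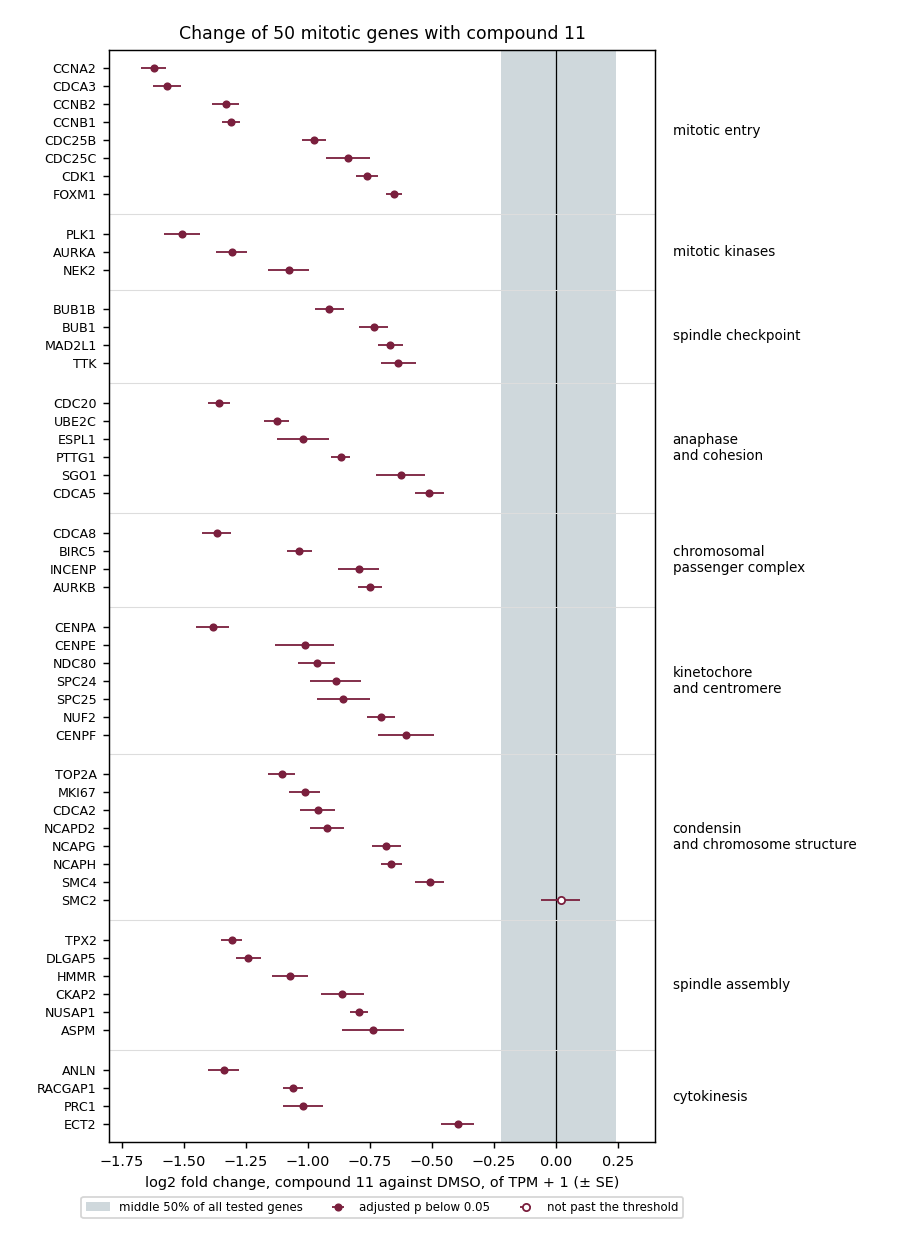
Change of each of the 50 mitotic genes, grouped by role. Points are limma log2 fold changes of TPM + 1, compound 11 against DMSO (3 libraries each), with bars of ± 1 SE; the filled points passed an adjusted p of 0.05 and the grey band holds the middle 50% of all tested genes. All points lie left of the band except SMC2, which lies inside it at 0.02.

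In the group of chromosome structure, 7 of 8 genes fell. TOP2A, the topoisomerase that untangles sister chromatids, was the most abundant and changed the most, at 320.4, 311 and 339.6 TPM in the DMSO libraries and 147, 142 and 162 TPM in the compound 11 libraries (log2 fold change -1.10 ± 0.06 SE, limma adjusted p = 2.97e-07). MKI67, the Ki-67 protein that coats mitotic chromosomes and is widely used as a proliferation marker, went from 159 ± 4.57 to 78.5 ± 7.04 TPM, and CDCA2, which brings protein phosphatase 1 to chromatin, from 46 ± 1.75 to 23.2 ± 1.61 TPM. The exception was SMC2, an ATPase of condensin, at 90.1, 86.8 and 96 TPM in the DMSO libraries and 87.4, 85.3 and 105 TPM in the compound 11 libraries. Its groups overlapped, with compound 11 replicate 3 the highest of all 6 libraries. The log2 fold change of SMC2 was 0.02 (95% interval of the limma fit -0.16 to 0.19, adjusted p = 0.863), an interval that leaves out the fall of any other member. SMC2 lies on chromosome 9 at 104094260 to 104141417 (ENSG00000136824, GRCh38, GENCODE v29, protein-coding).

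SMC2 forms a dimer with SMC4, and this pair is shared by condensin I, which holds NCAPD2, NCAPH and NCAPG, and condensin II, which holds NCAPD3, NCAPH2 and NCAPG2. SMC4 was at 141, 140.1 and 144 TPM in the DMSO libraries and 97, 92.9 and 109 TPM in the compound 11 libraries (log2 fold change -0.51 ± 0.06 SE, limma adjusted p = 8.8e-05). The TPM ratio of SMC2 to SMC4 was 0.64, 0.62 and 0.664 with DMSO and 0.901, 0.919 and 0.962 with compound 11. It did not overlap between groups, and p was 0.1 in an exact two-sided permutation test, the lowest value possible with 3 libraries per group. The 3 subunits specific to condensin I fell: NCAPD2 went from 214 ± 18.8 to 112 ± 6.95 TPM, NCAPH from 197 ± 3.83 to 124 ± 5.14 TPM and NCAPG from 105 ± 4.48 to 65.1 ± 4.26 TPM. Of the condensin II subunits 2 fell and 1 was not called. NCAPG2 went from 107 ± 3.89 to 74.5 ± 5.56 TPM and NCAPH2 from 85.4 to 70.5 TPM, while NCAPD3 was at 33.0 TPM with DMSO and 36 TPM with the compound (log2 fold change 0.12, limma adjusted p = 0.117). Although NCAPD3 was not called, every compound 11 library lay above every DMSO library for it. The ratio of NCAPD2 to NCAPD3 was 6.46 ± 0.476 with DMSO and 3.11 ± 0.166 with the compound, and that of NCAPH to NCAPH2 2.31 ± 0.128 and 1.76 ± 0.0629. For NCAPG to NCAPG2 the ratios were 0.98 ± 0.062 and 0.875 ± 0.0601 and overlapped. Of the 12 ratios computed, chosen after the values were seen, 8 gave this smallest p, and their Benjamini-Hochberg adjusted value was 0.15.

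**Figure D4:**
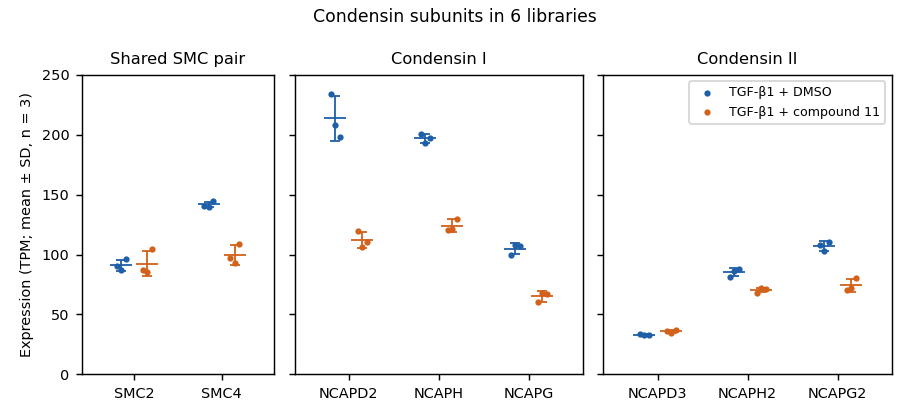
Expression of the condensin subunits in TPM, from 0 on a linear axis. Points are libraries, bars are the mean ± SD of 3 libraries, blue for TGF-β1 with DMSO and orange for TGF-β1 with compound 11. The groups overlap for SMC2, NCAPD3 is slightly higher with the compound and did not pass the threshold, and the other subunits are lower.

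All 6 spindle genes fell. TPX2 was the most abundant of these and had the largest change, at 351, 339 and 348 TPM in the DMSO libraries and 139, 132 and 147 TPM in the compound 11 libraries (log2 fold change -1.31 ± 0.04 SE, limma adjusted p = 2.09e-08). DLGAP5, which bundles the microtubules near chromosomes, was 2.38-fold lower, and HMMR, a microtubule-associated hyaluronan receptor, 2.13-fold lower. CKAP2 and NUSAP1, which stabilise and bundle microtubules, went from 169 ± 5.09 to 93.4 ± 13.7 TPM and from 202 ± 1.02 to 116 ± 1.15 TPM. ASPM, a spindle pole protein, was at 38.2, 38.9 and 48.1 TPM in the DMSO libraries and 23.9, 21.1 and 29.3 TPM in the compound 11 libraries (log2 fold change -0.74 ± 0.12 SE, limma adjusted p = 0.000964). Its replicate 3 was the highest in both groups, and the groups did not overlap.

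The 4 cytokinesis genes all fell, with log2 fold changes between -1.34 and -0.40. ANLN, anillin, which organises the contractile ring, was at 275, 251 and 269.7 TPM in the DMSO libraries and 95.8, 104 and 113 TPM in the compound 11 libraries (log2 fold change -1.34 ± 0.06 SE, limma adjusted p = 2e-07). PRC1, the microtubule bundler of the spindle midzone, was 2.03-fold lower, and RACGAP1, a GTPase-activating protein of the centralspindlin complex, 2.09-fold lower. ECT2, the exchange factor that activates RhoA for the contractile ring, was at 44.5, 46.9 and 50.2 TPM in the DMSO libraries and 35.6, 33.9 and 37.4 TPM in the compound 11 libraries (log2 fold change -0.40 ± 0.07 SE, limma adjusted p = 0.000888). ECT2 showed the smallest fall among the called members, and its groups were still separate.

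Across the 50 members the size of the fall was only weakly related to level or transcript length. Spearman's rho between the log2 fold change and the mean DMSO level was -0.33, with transcript length 0.13 and with GC content -0.27, over 50 genes that share the same 6 libraries. The order of the members by level was largely kept, with rho = 0.92 between the groups' means. CCNB1 and UBE2C held ranks 1 and 2 in both groups. ESPL1, SPC25 and CENPE held the lowest 3 ranks with the compound, at 13.2, 14.8 and 13.4 TPM, and do not differ beyond their spread; with DMSO they were at 27.7, 27.4 and 28 TPM. SMC2 rose in rank from 36 to 18.

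Other genes of mitosis were read from lists drawn by textbook function, with earlier results of these data known. The 12 mitotic kinesins all fell, with a median log2 fold change of -0.99, and 0 were higher in limma, also at an unadjusted p below 0.05. KIF20A, which acts in cytokinesis, went from 209.6 to 38.1 TPM, more than any of the 50 members, and KIF4A, a chromokinesin, was 2.22-fold lower. KIF23, the centralspindlin motor, was at 168 TPM with DMSO and, as the most abundant of the list with the compound, at 84 TPM. Of 32 further kinetochore and centromere genes 22 fell and 2 rose (median -0.42). SPDL1, which recruits dynein to kinetochores, was 2.23-fold lower and SKA1 1.99-fold, and SKA2, the most abundant, went from 329.8 to 246 TPM. The 2 that rose were CENPU and CENPQ, of the inner kinetochore, with log2 fold changes of 0.30 and 0.46.

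Of 31 further spindle, centrosome and cytokinesis genes 18 fell and 2 rose (median -0.32). FAM83D was 2.63-fold lower and CEP55, an abscission factor, 2.55-fold, while the abundant tubulin-binding protein STMN1 was 1.28-fold lower. Of 19 other genes of G2/M control 11 fell and 1 rose (median -0.22). CCNF, cyclin F, was 2.22-fold and GTSE1 2.1-fold lower, and CKS2, a CDK subunit, 1.26-fold. Of 24 other genes of the checkpoint and the anaphase-promoting complex 11 fell and 3 rose (median -0.13). TRIP13, which remodels MAD2, was 1.72-fold lower and ANAPC15 1.95-fold, whereas BUB3 was at 279 and 262 TPM and did not pass (adjusted p = 0.0978). These 3 lists hold both genes of mitosis and genes that are needed throughout the cell cycle.

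Of 17 cohesin and condensin II genes 7 fell and 4 rose, with a median of -0.02, beside the 24.3% lower and 25.3% higher among all tested genes. SGO2 was 1.91-fold lower, NCAPG2 1.44-fold lower and RAD21, the cleavable subunit of cohesin, 1.24-fold lower. The 4 that rose were STAG2, PDS5A, NIPBL and ESCO1. Among 12 genes listed for DREAM and MuvB 2 fell and 5 rose, with B-MYB, which replaces DREAM, counted in the list. MYBL2, which encodes B-MYB, went from 177 ± 7.78 to 66.5 ± 3.79 TPM (log2 fold change -1.40 ± 0.05 SE, limma adjusted p = 5.17e-08). The other gene called lower was TFDP1 (log2 fold change -0.11, limma adjusted p = 0.0326). LIN52, a MuvB subunit, was 1.47-fold higher. RBL1 and RBL2, the pocket proteins p107 and p130, and E2F4 rose with log2 fold changes of 0.37, 0.28 and 0.22, and TFDP2 rose by 0.31. RBBP4, the most abundant, was at 293 and 280.5 TPM and did not pass.

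Of 47 genes of DNA replication and S phase, 14 fell and 8 rose, with a median log2 fold change of -0.08, beside the 24.3% lower and 25.3% higher among all tested genes. TK1, thymidine kinase, was 1.93-fold and DBF4, the activator of CDC7, 1.69-fold lower, and MCM4, the most abundant with DMSO, was at 555 ± 25.5 TPM with DMSO and 559 ± 48.5 TPM with the compound. The 8 that rose were E2F1, PCNA, RFC2 and the helicase subunits MCM2, MCM3, MCM5, MCM6 and MCM7. Their log2 fold changes lay between 0.18 for MCM6 and 0.43 for E2F1. The lists share the same 6 libraries, and the difference between lists was not tested; the counts and medians are descriptions.

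**Figure D5:**
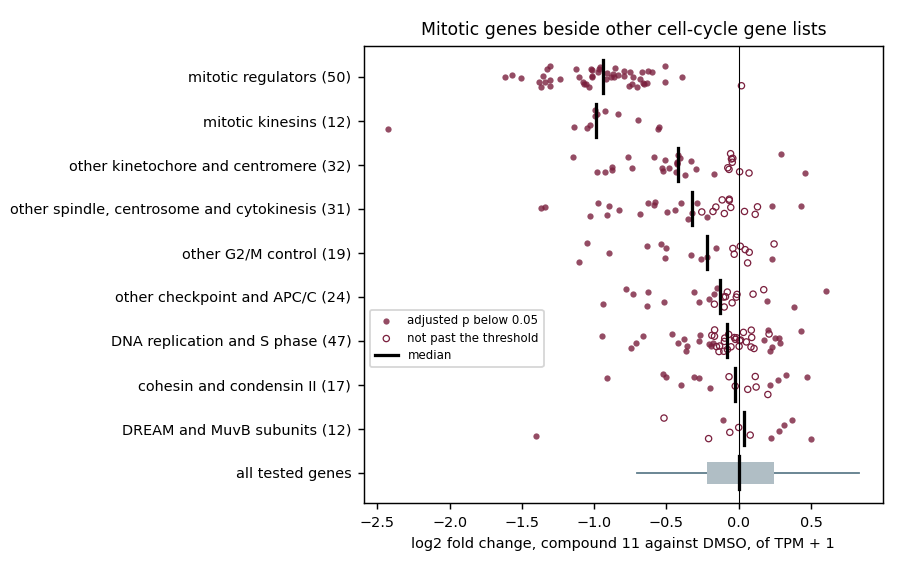
Log2 fold changes of TPM + 1, compound 11 against DMSO, for the 50 mitotic genes and 8 other cell-cycle lists (number of genes in brackets). Each point is a gene, filled where it passed an adjusted p of 0.05, and the black line is the median; for all tested genes the bar holds the middle 50% and the line the 5th to 95th percentile. The mitotic genes and kinesins lie almost wholly below -0.5, and the replication, cohesin and DREAM lists centre near 0.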

How the data were processed

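RNA-seq of 6 LX-2 libraries was used, 3 per group, with group and replicate taken from the sample labels. The column names of the deposited table read FPKM, yet every library totals 1000000, so the authors' values are on the TPM scale and carry no depth. The design had assumed FPKM, and the test was the same. Bowtie (version 0.12.2) is listed in the submitters' processing notes, as are genome builds GRCh38.p12 and mm8, none with a stated role; the sources used here give neither the counting tool nor the use of strand. Genes reaching 1 TPM in 3 or more of the 6 libraries entered a limma fit (version 3.58.1, R 4.3.3) on log2(TPM + 1), with a variance trend, two-sided, and Benjamini-Hochberg adjustment over all 12067 genes; such fold changes understate the changes of low genes. Folds without log2 are ratios of mean TPM. The pipeline was run on simulated data with independent noise and far fewer changed genes, which does not measure false calls in these libraries. GENCODE v29 supplied coordinates, transcript length and GC content. The members, lists and roles were chosen with earlier results of these data known. Values in every library are given for the member of each role with the highest DMSO level and with the largest and smallest change; of the other lists, the gene with the highest mean over all libraries and the largest changes among called genes are named, and further genes were named after their values were seen.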

Additional observations from a re-analysis of the deposited data

How the results depend on the processing

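The fit was repeated with a pseudocount of 0.1, unfiltered, on genes averaging 5 TPM or more, after upper-quartile or quantile normalization, with the 20 most abundant genes removed, with no variance trend, with replicate number as a block, and leaving out each library; a correction for GC content and transcript length was added after seeing the data. Under all 15, 49 members were called lower and 0 higher, each member kept its side of the threshold, and the median log2 fold change stayed between -0.98 and -0.91. SMC2 lay between -0.07 and 0.07, with an adjusted p of 0.323 or more. Deviations of same-numbered libraries correlated at 0.08, 0.15 and 0.07 across tested genes, and those of unlike number at -0.10 to 0.03. Every library thus correlated best with its own number, which with so few libraries can also arise by chance. Whether the libraries are paired was not tested, and the labels state no pairing. With the replicate block 6226 genes were called in place of 5984, and leaving out 1 library gave 5204 to 5536 called genes. The count of genes of the DREAM and MuvB list called lower dropped to 1, MYBL2 alone, under quantile normalization, without the 20 most abundant genes, without a variance trend and with the GC and length correction. For other spindle, centrosome and cytokinesis genes 1 was called higher with no filter, with quantile normalization, without a trend and with the GC and length correction, and for other G2/M control genes 2 were called higher with quantile normalization. Leaving out 1 library gave 1 to 2 for each of these 3 counts: the DREAM count was 1 without DMSO replicate 2 or 3 or compound 11 replicate 1 or 2, the spindle count was 1 without replicate 1 of either group, DMSO replicate 2 or compound 11 replicate 3, and the G2/M count was 2 without compound 11 replicate 1. The cause was not tested. The unknown depth means that counting error cannot be given.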
